A study of Mus musculus with 61 samples.

Results

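Wild-type stembryos late in culture, at 144 h and 168 h after aggregation, were compared across the genome with wild-type stembryos at 120 h and 132 h. Every gene with a mean of 1 FPKM or more (fragments over transcript length in kilobases and over library depth) in either window was taken, which gave 12331 of the 55052 genes in the table, and no measured difference entered that choice. The comparison used 8 of the 61 libraries of the series, 4 per window and 2 per stage, and each step between neighboring stages was also tested.

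Stembryos are gastruloids: mouse embryonic stem cells are aggregated, lengthen over days in culture and form tissues of the posterior embryo. All 8 libraries came from the same wild-type EmbryoMax 129/SVEV stem cell line grown in N2B27 medium, with a pulse of Chiron, a GSK-3 inhibitor that activates Wnt signaling, that ended at 72 h, and no group carried a mutation. Each library was made from pooled stembryos, and from 108 h only elongating stembryos without signs of apoptosis were collected, so the values describe the stembryos that passed this selection. The other libraries of the series hold earlier wild-type stages, further wild-type libraries and stembryos with deletions or insertions at the HoxD cluster.

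The posterior embryo grows from a tail bud in which progenitor cells give rise to both spinal cord and paraxial mesoderm. Paraxial mesoderm is cut into somites under an oscillating program called the segmentation clock, and each somite later splits into muscle, dermis and cartilage precursors. Neural progenitors take dorsoventral identities under Shh and BMP signals before they leave the cell cycle as neurons, while Hox genes of higher paralogue number come on in more posterior and later cells.

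Sequencing depth, read off the steps between low FPKM values, was 15.0 to 23.6 M fragments per library, at which 3 fragments on a transcript of 2 kb correspond to 0.0637 to 0.0998 FPKM. The first principal component of the 8 libraries held 36.0% of the variance and ordered them by stage. The second held 17.6% and set 120 h replicate 1 apart from the other 7 libraries. Between the 2 replicates the log2 values differed with an SD of 0.94 at 120 h and 0.68 to 0.71 at the other stages. Mitochondrial mRNAs took 1.36% to 3.27% of all FPKM. Values are given below for replicate 1 and replicate 2 in that order, and differences are on the log2(FPKM + 0.1) scale with their standard error, which understates the change of genes near 0.1 FPKM.

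Between the windows 669 genes (5.43% of those tested) were higher and 782 (6.34%) were lower at 144-168 h, by limma with a Benjamini-Hochberg adjusted p under 0.05. The median size of the difference was 0.63 for the higher genes and 0.54 for the lower ones, and 210 and 119 of them differed at least 2-fold. For 1575 genes (12.8%) every late library lay above every earlier one, and for 1453 (11.8%) every late library lay below, whether or not they passed the test. A fit with 1 coefficient per stage over the 16 time-course libraries, which takes the spread within stages alone as error, called 1770 genes higher (14.4%) and 1682 lower (13.6%) in the same contrast. The spread within a window includes the difference between its 2 stages, and, since the labels do not say whether replicates were separate cultures, the p-values measure the spread between these libraries alone.

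Most calls between the windows depended on single libraries. Without 168 h replicate 1 or 2 the counts were 48 higher and 47 lower, or 46 and 43. Without 132 h replicate 2 they were 72 and 55, and without 120 h replicate 2 they were 103 and 113. Leaving out 144 h replicate 1 or 2 gave 327 and 428, or 352 and 398, and leaving out 132 h replicate 1 gave 461 and 682. Without 120 h replicate 1 more genes passed, 825 and 844. Of the 105 genes named by rule that passed between the windows, 18 kept their call under all 8, among them Olig1, Olig2, Neurog2, Nkx6-1, Hoxd13, Pax3, Dmrt2, Actc1, Cldn3, Lum, Dcn, Col9a1, Fap, Mvk and 3 genes with exact zeros described last. All 105 kept their sign. The windows did not overlap for 661 of the 669 higher and 780 of the 782 lower genes. For such genes leaving out 1 library could not reverse the sign.

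**Figure D1:**
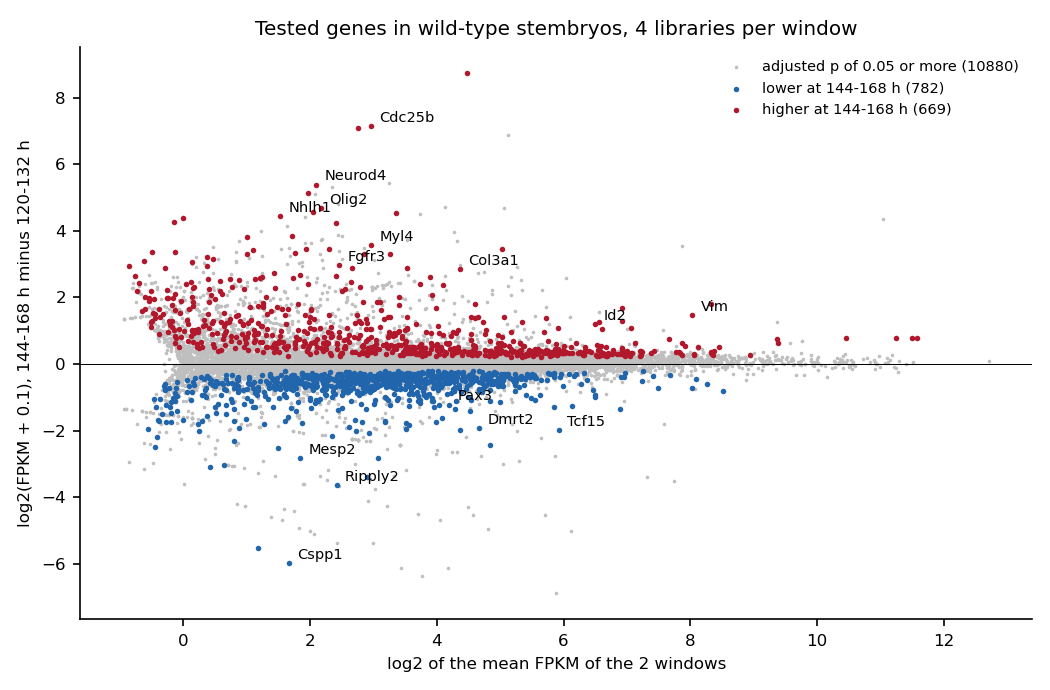
Each point is 1 of the 12331 tested genes. The horizontal axis gives the log2 of its mean FPKM over both windows and the vertical axis the log2(FPKM + 0.1) difference between the 4 libraries at 144-168 h and the 4 at 120-132 h. Red points are the 669 genes called higher, blue points the 782 called lower and gray points the other 10880 genes. Neurod4, Olig2 and Nhlh1 sit high among the red points and Ripply2 and Mesp2 low among the blue ones.

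Of the 669 higher genes, 378 (56.5%) had the same sign in all 3 steps, and in 498 the step from 132 h to 144 h was the largest of the 3. Of the 782 lower genes, 474 (60.6%) had the same sign in all steps. In 613 of them the step from 132 h to 144 h was the largest. The test between the windows takes the steps inside each window as spread, so it favors genes that change most from 132 h to 144 h. The counts of largest steps therefore follow in part from how the genes were called and do not show when most change took place. They were not compared with all tested genes. Tested step by step, 43 genes (0.349%) rose and 43 (0.349%) fell from 120 h to 132 h. From 132 h to 144 h, 109 genes (0.884%) rose and 89 (0.722%) fell, a share of 55.1% rising that became 40.2% (164 and 244 genes) after quantile normalization. From 144 h to 168 h, an interval of 24 h against 12 h for the other steps, 549 genes (4.45%) rose and 405 (3.28%) fell. In all, 11201 genes passed in no step, and 3 genes rose in each of the 3.

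**Figure D2:**
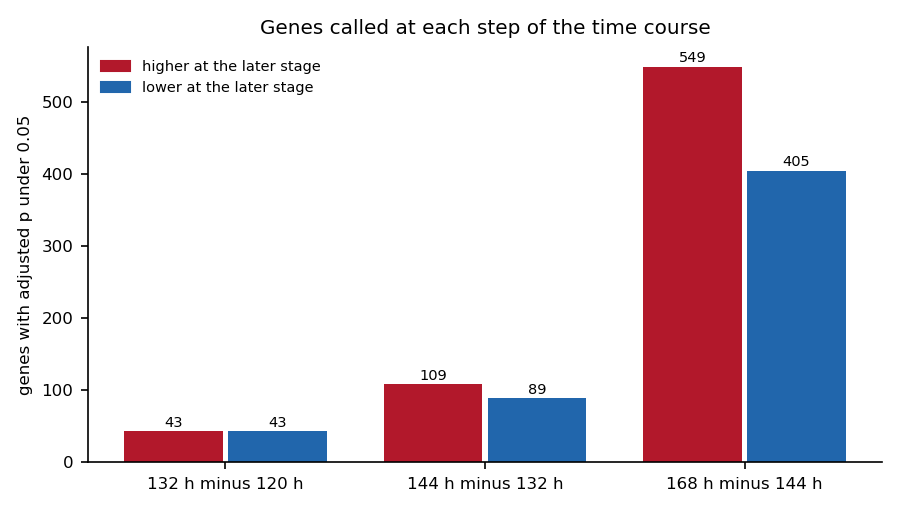
Bars give the number of genes past the threshold at each step of the time course, with genes higher at the later stage in red and lower ones in blue. The last step, 144 h to 168 h, spans 24 h and has 549 and 405 genes, against 43 and 43 for the first step and 109 and 89 for the second.

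Neural tube progenitor genes were among the steepest to rise. Of the 18 tested genes on this list, 5 rose between the windows (27.8%, against 5.43% of all tested genes), none fell, and the other 13 did not pass the test, with a median difference of 2.34 against 0.03 over all tested genes. Without any 1 library 4 or 5 rose. Olig2, Neurog1, Neurog2 and Nkx6-1 were under 1 FPKM at 120-132 h and passed the filter through the late window alone. Members low in both windows were left out, so the filter can raise the share and median of the list. The same limit holds for every list with members that reached 1 FPKM in the late window alone, the neuron, cardiac and posterior Hox lists among them. Shh, Nog, Gata3, Gdf10, Cdkn2b, Myog, Lum, Dcn and mt-Nd3, called higher below, were such members of other lists. All lists were chosen with earlier results known. Olig2, a bHLH factor of motor neuron and oligodendrocyte progenitors, was at 0.234 and 0.139 FPKM at 120 h, 0.138 and 0.411 at 132 h, 5.13 and 5.14 at 144 h, and 12.4 and 12.4 at 168 h. Both late stages lay well above both earlier ones with no overlap (log2 difference 4.69 ± 0.40, adjusted p = 0.0037), and Olig1, its neighbor, rose too (log2 difference 2.94 ± 0.28, adjusted p = 0.0051). Neurog2, which commits progenitors to a neuronal fate, was at 0.165 and 0.114 FPKM at 120 h, 0.395 and 0.131 at 132 h, 3.82 and 3.16 at 144 h, and 12.3 and 12.97 at 168 h. All late values were above the earlier ones and highest at 168 h (log2 difference 4.57 ± 0.54, adjusted p = 0.0099). Nkx6-1, a homeodomain factor of the ventral spinal cord, stood at 0.774 and 0.221 FPKM at 120 h, 0.255 and 0.490 at 132 h, 5.75 and 5.43 at 144 h, and 14.7 and 14.9 at 168 h. Its libraries separated completely as well (log2 difference 4.22 ± 0.47, adjusted p = 0.0094). Neurog1, a neurogenic bHLH factor related to Neurog2, was at 0.0561 and 0.0926 FPKM at 120 h, 0.322 and 0.142 at 132 h, 0.788 and 0.917 at 144 h, and 13.5 and 10.6 at 168 h. Its late libraries lay above the earlier ones (log2 difference 3.85 ± 0.99, adjusted p = 0.047), with called rises in the last 2 steps. From 132 h to 144 h 5 of the 18 rose (27.8%, against 0.884% of all tested genes), and they were the same 5 genes. The difference between the windows contains this step, so the 2 sets of calls are not independent.

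The broad neural progenitor genes followed another course. Sox2, needed for neural progenitor and pluripotent cells, was at 9.13 and 39.7 FPKM at 120 h, 74.9 and 49.3 at 132 h, 61.2 and 71.2 at 144 h, and 123 and 123 at 168 h, with 120 h replicate 1 far below every other library and the windows overlapping (log2 difference 1.40 ± 0.63, adjusted p = 0.17). Pax6, a homeodomain factor of the intermediate neural tube, was at 1.06 and 2.38 FPKM at 120 h, 12.7 and 6.04 at 132 h, 9.40 and 10.7 at 144 h, and 41.4 and 38.4 at 168 h and was called in 2 steps, 120 h to 132 h (log2 difference 2.39 ± 0.43, adjusted p = 0.042) and 144 h to 168 h (log2 difference 1.98 ± 0.43, adjusted p = 0.023). Rfx4, a neural winged-helix factor, was called in the same 2 steps, at 0.621 and 1.30 FPKM at 120 h, 7.79 and 4.42 at 132 h, 7.66 and 7.66 at 144 h, and 22.8 and 24.1 at 168 h. Both genes stood near their 132 h level at 144 h. Over the whole list the summed level was 45.2 and 107 FPKM at 120 h, 226 and 149 at 132 h, 214 and 228 at 144 h, and 659 and 622 at 168 h. The sum was lowest in 120 h replicate 1 and highest in both 168 h libraries, and 10 of the 18 members rose in the last step (55.6%, against 4.45%), Zic1 and Nes among them (log2 differences 1.90 and 1.10). In bulk RNA, fewer cells of a type and less RNA per cell cannot be told apart.

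**Figure D3:**
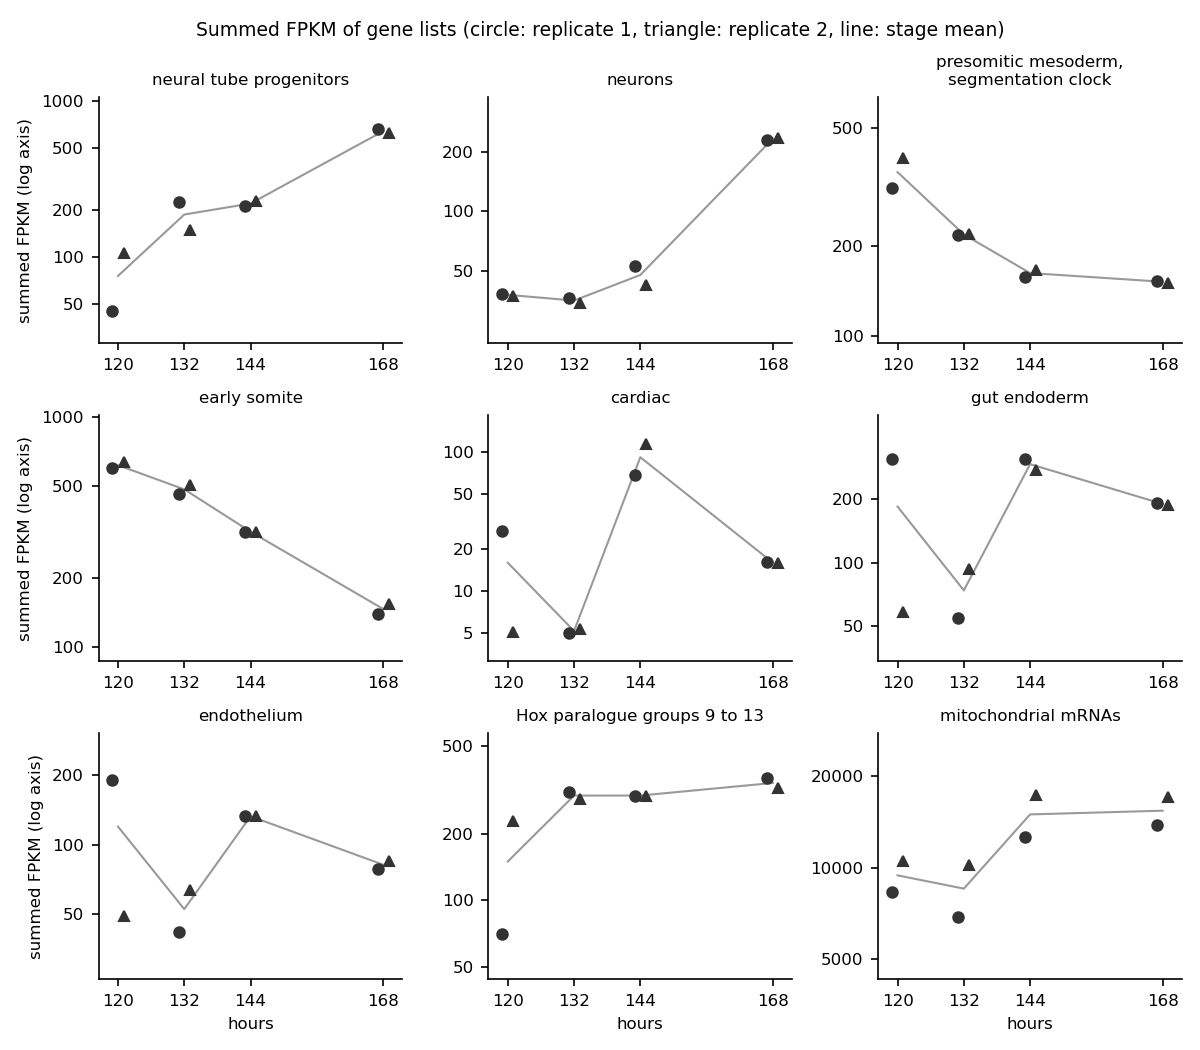
Each panel gives the summed FPKM of a gene list on a log axis against hours of culture, with replicate 1 as a circle, replicate 2 as a triangle and the stage mean as a line. Neurons rise in the last step to 231 and 236 FPKM, somite and segmentation lists decline, and the cardiac, gut endoderm and endothelium lists have a high value in 120 h replicate 1 and again at 144 h.

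Neuronal genes came on late. The summed level of the neuron list was 38.1 and 37.4 FPKM at 120 h, 36.3 and 34.3 at 132 h, 52.9 and 42.3 at 144 h, and 231 and 236 at 168 h, so the 6 libraries up to 144 h spanned 34.3 to 52.9 FPKM and both at 168 h lay far above them. Of its 31 genes 15 were tested, 10 of them rose from 144 h to 168 h (66.7%, against 4.45%), and the median difference of that step was 2.58. Dcx, of migrating neurons, Stmn2, of growing axons, and Elavl3, an RNA-binding protein of neurons, rose in that step by 3.89, 3.37 and 2.71 on the log2 scale. Between the windows 1 rose (6.67%, against 5.43%) and none fell. This was Nhlh1, a bHLH factor of newly born neurons, at 0.0371 and 0.102 FPKM at 120 h, 0.118 and 0.0235 at 132 h, 1.17 and 1.10 at 144 h, and 10.8 and 9.87 at 168 h, where 144 h lay between the earlier libraries and 168 h (log2 difference 4.44 ± 0.82, adjusted p = 0.024). Tubb3, the neuronal tubulin, was at 3.88 and 8.37 FPKM at 120 h, 10.05 and 8.39 at 132 h, 21.9 and 15.1 at 144 h, and 106 and 114 at 168 h and did not pass between the windows (log2 difference 2.61 ± 0.73, adjusted p = 0.057), although its late libraries all lay above the earlier ones and the last step passed (log2 difference 2.58 ± 0.34, adjusted p = 0.0022). Outside the lists, Neurod4, a bHLH factor of neuronal differentiation, was the most risen named gene without libraries at exact 0, at 0.0134 and 0.0295 FPKM at 120 h, 0.0682 and 0.0340 at 132 h, 2.204 and 1.80 at 144 h, and 14.96 and 15.3 at 168 h. The 4 earlier values lie near or below the worth of 3 fragments and the 168 h values are the highest, and the fitted difference is set in part by the pseudocount (log2 difference 5.39 ± 0.75, adjusted p = 0.016). Sst, which encodes the neuropeptide somatostatin, was at 0 and 0.0849 FPKM at 120 h, 0.0984 and 0 at 132 h, 1.65 and 1.43 at 144 h, and 12.4 and 15.8 at 168 h. It is listed at 0 in 2 of the 4 earlier libraries and reached its highest level at 168 h (log2 difference 5.12 ± 0.84, adjusted p = 0.020). Pou3f4, a POU factor of the neural tube, was at 0.216 and 0.237 FPKM at 120 h, 0.393 and 0.352 at 132 h, 1.38 and 1.18 at 144 h, and 13.6 and 13.3 at 168 h. Its windows were apart as well (log2 difference 3.46 ± 0.86, adjusted p = 0.044). Nefl, a neurofilament gene, was at 15.8 and 10.7 FPKM at 120 h, 12.2 and 11.96 at 132 h, 7.80 and 7.33 at 144 h, and 11.2 and 11.2 at 168 h, lowest at 144 h, and did not pass.

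**Figure D4:**
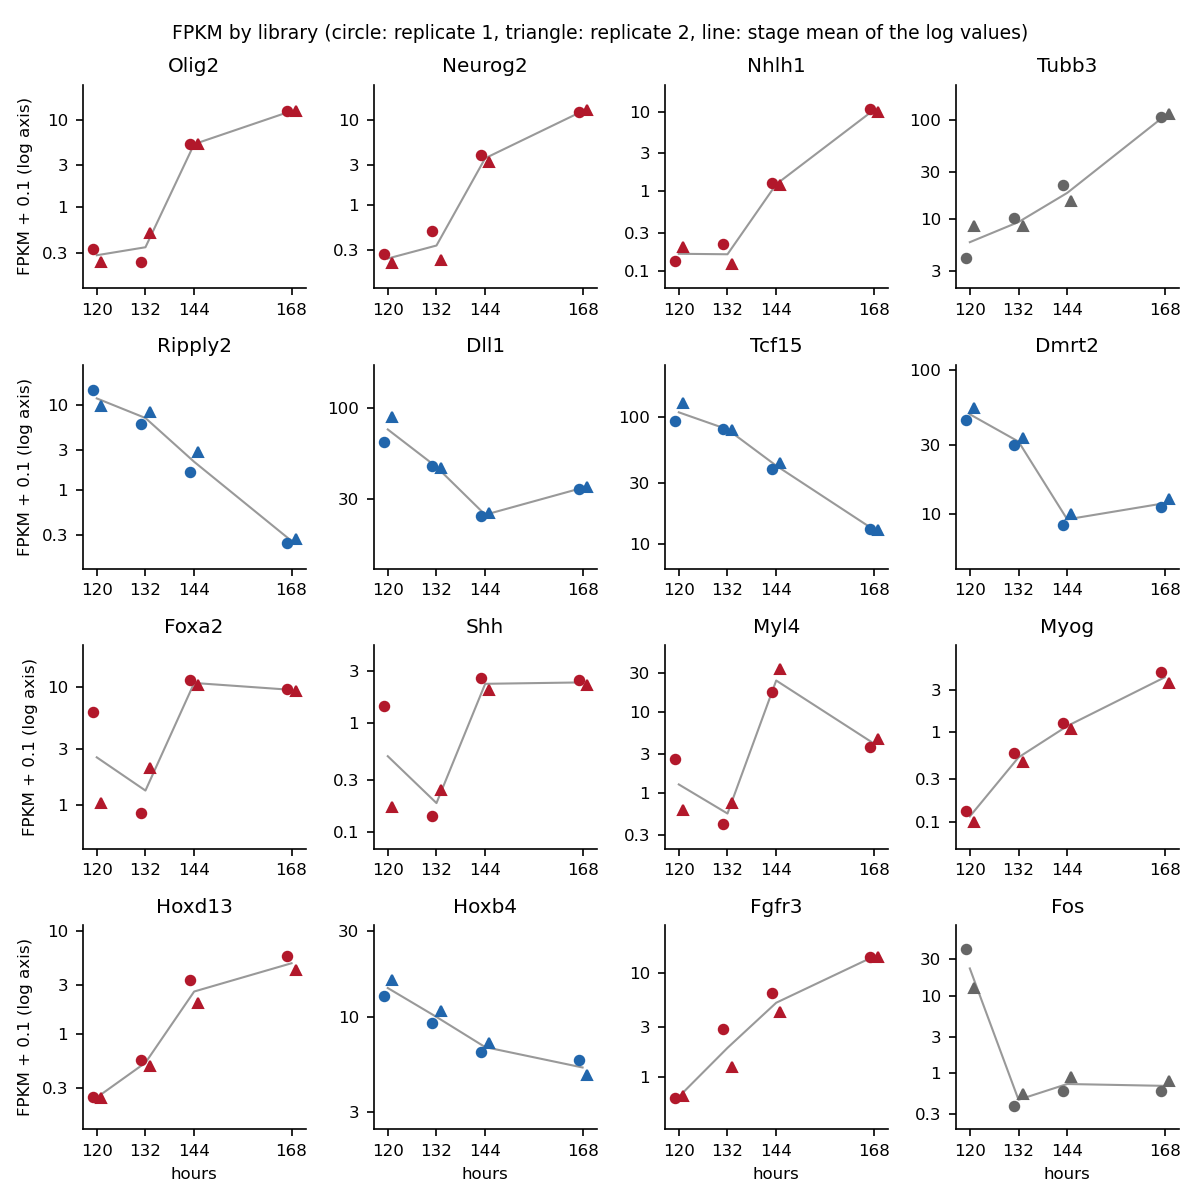
FPKM + 0.1 of 16 genes on a log axis against hours of culture, with replicate 1 as a circle, replicate 2 as a triangle and a line through the stage means of the log values. Genes called higher between the windows are red, genes called lower blue and the uncalled Tubb3 and Fos gray. Foxa2, Shh and Myl4 have a higher value in 120 h replicate 1 than in the other 3 libraries of its window.

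Several segmentation clock and somite genes fell. Of the 15 tested presomitic and clock genes, 5 fell between the windows (33.3%, against 6.34% of all tested genes), none rose, and 10 did not pass. The median difference was -1.12. Without 120 h replicate 1 the number that fell was 2, and without any 1 of the other libraries it was 0 to 3. By the fit with error taken within stages 12 of them fell, against 13.6% of all tested genes. In the last step 1 rose (6.67%, against 4.45%) and 7 fell (46.7%, against 3.28%), Tbx6 and Msgn1, regulators of the presomitic fate, and Hes7, the oscillating repressor of the clock, among them (log2 differences -3.94, -4.55 and -3.78). Ripply2, a repressor that ends the clock at the somite border, was at 14.7 and 9.55 FPKM at 120 h, 5.86 and 8.22 at 132 h, 1.54 and 2.75 at 144 h, and 0.142 and 0.168 at 168 h. Its mean was lower at each later stage and the windows did not overlap (log2 difference -3.63 ± 0.84, adjusted p = 0.038), as also for Ripply1 (log2 difference -2.54 ± 0.64, adjusted p = 0.046). Mesp2, which sets the border and the front-to-back polarity of the somite, was at 7.36 and 9.02 FPKM at 120 h, 4.61 and 4.14 at 132 h, 1.80 and 1.08 at 144 h, and 0.297 and 0.489 at 168 h. It was lowest in both 168 h libraries (log2 difference -2.83 ± 0.51, adjusted p = 0.023). Dll1 and Dll3, Notch ligands of the presomitic mesoderm, fell less steeply. Dll1 was at 63.5 and 88.5 FPKM at 120 h, 45.97 and 45.1 at 132 h, 23.6 and 24.6 at 144 h, and 34.05 and 34.9 at 168 h. It was lowest at 144 h (log2 difference -1.02 ± 0.25, adjusted p = 0.042). Dll3 was at 20.4 and 32.3 FPKM at 120 h, 16.5 and 16.04 at 132 h, 10.1 and 10.6 at 144 h, and 8.995 and 7.92 at 168 h (log2 difference -1.12 ± 0.23, adjusted p = 0.030). Its late libraries all lay below the earlier ones. Nrarp, a Notch feedback gene, was at 29.8 and 69.1 FPKM at 120 h, 44.2 and 40.9 at 132 h, 29.7 and 34.6 at 144 h, and 51.2 and 49.9 at 168 h and did not pass (log2 difference -0.13 ± 0.29, adjusted p = 0.78).

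Among 12 tested early somite genes 2 fell (16.7%, against 6.34% of all tested genes), none rose and 10 did not pass (median -0.92), while 4 fell in the last step (33.3%, against 3.28%). Tcf15, also called Paraxis, which keeps the somite epithelial, was at 91.8 and 128 FPKM at 120 h, 80.1 and 79.1 at 132 h, 39.04 and 43.7 at 144 h, and 13.1 and 12.8 at 168 h. Its mean was lower at each later stage and the windows were apart (log2 difference -1.999 ± 0.46, adjusted p = 0.037). Uncx, of the posterior part of the somite, was at 10.7 and 31.3 FPKM at 120 h, 17.01 and 14.9 at 132 h, 6.52 and 7.74 at 144 h, and 2.92 and 3.24 at 168 h (log2 difference -1.85 ± 0.42, adjusted p = 0.037). Its highest value was 120 h replicate 2. Meox1, a homeodomain factor of all somites, was at 280.1 and 319 FPKM at 120 h, 250.3 and 286 at 132 h, 161 and 151 at 144 h, and 39.9 and 45.7 at 168 h, apart between windows but short of the threshold (log2 difference -1.79 ± 0.49, adjusted p = 0.055), with a called fall from 144 h to 168 h (log2 difference -1.87 ± 0.27, adjusted p = 0.0035). Aldh1a2, the enzyme that makes retinoic acid in somites, was at 73.2 and 27.2 FPKM at 120 h, 21.2 and 23.1 at 132 h, 27.8 and 27.7 at 144 h, and 42.3 and 46.2 at 168 h and was highest in 120 h replicate 1. Dmrt2, a factor of the somite and dermomyotome, was at 44.5 and 54.1 FPKM at 120 h, 30.1 and 33.4 at 132 h, 8.30 and 9.97 at 144 h, and 11.1 and 12.6 at 168 h, with a called fall between 132 h and 144 h (log2 difference -1.92 ± 0.21, adjusted p = 0.0091). Cer1, a secreted antagonist of Nodal and BMP that is also made in the anterior presomitic mesoderm, was at 12.4 and 16.4 FPKM at 120 h, 11.4 and 11.9 at 132 h, 2.86 and 3.80 at 144 h, and 0.671 and 0.173 at 168 h (log2 difference -3.38 ± 0.80, adjusted p = 0.039). Its 168 h values were the lowest. Pcdh19, a protocadherin, and Dact2, an adaptor of Wnt and TGF-beta signaling, fell as well (log2 differences -2.03 and -1.95).

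Tail bud and neuromesodermal progenitor genes gave 1 call between the windows. Of the 18 list members, all tested, 1 rose (5.56%, against 5.43% of all tested genes) and none fell, with a median of -0.51. The median of the last step was -1.44 with 4 falls (22.2%, against 3.28%), in T, Wnt3a, Fgf17 and Cdx1. T, or Brachyury, which marks the tail bud and the notochord, was at 39.2 and 58.4 FPKM at 120 h, 25.1 and 23.2 at 132 h, 37.2 and 35.9 at 144 h, and 10.4 and 9.20 at 168 h. It was lowest in both 168 h libraries and fell in the last step (log2 difference -1.89 ± 0.33, adjusted p = 0.0090). Cdx2, a posterior homeodomain factor, was at 41.5 and 71.8 FPKM at 120 h, 53.5 and 56.1 at 132 h, 62.1 and 59.5 at 144 h, and 23.4 and 21.3 at 168 h and passed in no step. Cdx4, its relative, was at 10.3 and 53.3 FPKM at 120 h, 53.1 and 52.1 at 132 h, 37.4 and 38.5 at 144 h, and 12.9 and 9.65 at 168 h, so 120 h replicate 1 lay with the 168 h libraries. Grrp1 was the member that rose (log2 difference 0.69 ± 0.12, adjusted p = 0.021).

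Derivatives of the somite moved in both directions. Of 13 tested dermomyotome and skeletal muscle genes, 2 rose (15.4%, against 5.43% of all tested genes) and 4 fell (30.8%, against 6.34%) between the windows (median 0.67). In the last step 5 rose (38.5%, against 4.45%). Among the falling members were Eya1, a transcriptional coactivator upstream of myogenesis (log2 difference -1.163 ± 0.26, adjusted p = 0.037), and Met, the receptor of migrating muscle precursors (log2 difference -0.56 ± 0.14, adjusted p = 0.041). Pax3, of dermomyotome and dorsal neural tube, was at 22.7 and 30.7 FPKM at 120 h, 24.5 and 24.7 at 132 h, 8.72 and 9.76 at 144 h, and 12.2 and 13.6 at 168 h, lowest at 144 h (log2 difference -1.22 ± 0.16, adjusted p = 0.014). The rising members were Myog, which triggers muscle differentiation, and Actc1, a striated muscle actin. Myog was at 0.0321 and 0 FPKM at 120 h, 0.491 and 0.367 at 132 h, 1.159 and 0.999 at 144 h, and 4.62 and 3.49 at 168 h . With Ckb and Rab43 it was 1 of the 3 genes called higher in all 3 steps (log2 difference 3.16 ± 0.74, adjusted p = 0.039). Actc1 was at 4.25 and 4.52 FPKM at 120 h, 5.70 and 6.68 at 132 h, 24.6 and 49.1 at 144 h, and 21.3 and 20.9 at 168 h, highest in 144 h replicate 2 (log2 difference 2.36 ± 0.29, adjusted p = 0.011). Mylpf, a fast myosin light chain, was at 9.05 and 6.63 FPKM at 120 h, 10.1 and 10.6 at 132 h, 11.5 and 8.97 at 144 h, and 27.2 and 31.1 at 168 h and passed in the last step alone of the 3 (log2 difference 1.51 ± 0.24, adjusted p = 0.0060).

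On the sclerotome and cartilage list, 2 of 14 tested genes rose (14.3%, against 5.43%) and 1 fell (7.14%, against 6.34%; median 0.18). Col9a1, a cartilage collagen, rose with Sox9 (log2 difference 2.31). Sox9, the cartilage regulator, which neural and gut cells also use, was at 4.22 and 2.81 FPKM at 120 h, 5.35 and 4.65 at 132 h, 12.2 and 10.6 at 144 h, and 14.9 and 14.7 at 168 h. Its windows were apart (log2 difference 1.62 ± 0.21, adjusted p = 0.012). Scx, of tendon precursors, was at 4.43 and 10.5 FPKM at 120 h, 9.27 and 8.76 at 132 h, 2.96 and 2.98 at 144 h, and 0.773 and 1.14 at 168 h, the 168 h libraries being the lowest (log2 difference -2.15 ± 0.48, adjusted p = 0.036). Pax1, a sclerotome factor, was at 25.1 and 14.98 FPKM at 120 h, 30.5 and 42.96 at 132 h, 56.8 and 48.6 at 144 h, and 7.14 and 12.3 at 168 h, so it was highest at 144 h and lowest at 168 h, with a called fall in that step (log2 difference -2.47 ± 0.32, adjusted p = 0.0017). Matrix genes split as well, with 3 of 16 higher (18.8%, against 5.43%) and 2 lower (12.5%, against 6.34%). Col3a1, a fibrillar collagen, was at 3.62 and 1.97 FPKM at 120 h, 6.99 and 9.77 at 132 h, 46.8 and 37.7 at 144 h, and 25.5 and 32.2 at 168 h. It was highest at 144 h (log2 difference 2.85 ± 0.48, adjusted p = 0.020). Lum and Dcn, small proteoglycans of connective tissue, rose from 0.0341 to 0.238 FPKM in the earlier libraries to 1.08 FPKM or more (log2 differences 3.20 and 3.08), while Col4a1, of the basement membrane, and Col1a2, a fibrillar collagen, fell (log2 differences -0.92 and -1.09). Fmod, another small proteoglycan, was at 10.96 and 16.4 FPKM at 120 h, 13.4 and 14.8 at 132 h, 5.05 and 5.17 at 144 h, and 0.714 and 0.550 at 168 h and fell (log2 difference -2.83 ± 0.74, adjusted p = 0.0497).

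Summed levels of endodermal and cardiac genes were high at 144 h and also in 1 of the 120 h libraries. The summed level of the gut endoderm list was 309 and 58.2 FPKM at 120 h, 54.9 and 93.05 at 132 h, 308 and 275 at 144 h, and 192 and 186 at 168 h. On that list 3 of 14 tested genes rose (21.4%, against 5.43% of all tested genes), none fell and 11 did not pass (median 1.35, and 2.00 without 120 h replicate 1). Without that library 9 of the 14 were called higher, and without any 1 of the other 7 none. Foxa2, a forkhead factor of endoderm, notochord and floor plate, was at 6.09 and 0.930 FPKM at 120 h, 0.741 and 1.96 at 132 h, 11.3 and 10.2 at 144 h, and 9.49 and 9.25 at 168 h. Its late libraries lay above all earlier ones, of which 120 h replicate 1 was the highest (log2 difference 2.47 ± 0.58, adjusted p = 0.039). Foxa1 followed (log2 difference 2.68 ± 0.63, adjusted p = 0.039), as did Krt19, a keratin of simple epithelia (log2 difference 2.88 ± 0.64, adjusted p = 0.035). Shh, the signal of notochord, floor plate and gut, was at 1.33 and 0.0699 FPKM at 120 h, 0.0405 and 0.141 at 132 h, 2.46 and 1.91 at 144 h, and 2.38 and 2.10 at 168 h, again with 120 h replicate 1 near the late libraries (log2 difference 2.93 ± 0.69, adjusted p = 0.039, and adjusted p = 0.00057 without it). Cldn6, an epithelial claudin, was at 54.4 and 6.82 FPKM at 120 h, 5.93 and 13.3 at 132 h, 74.8 and 61.2 at 144 h, and 52.95 and 56.6 at 168 h, and the windows overlapped through 120 h replicate 1 (log2 difference 2.21 ± 0.66, adjusted p = 0.066, and adjusted p = 0.0070 without it). Nog, a BMP antagonist of the notochord, rose and Ntn1, a floor plate guidance cue also made in somites, fell (log2 differences 1.02 and -0.67). Cldn3 and Cldn4, tight junction genes, rose with the gut genes (log2 differences 2.57 and 1.999).

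The summed level of the 20 cardiac genes was 27.03 and 5.11 FPKM at 120 h, 5.06 and 5.35 at 132 h, 68.9 and 115 at 144 h, and 16.2 and 15.9 at 168 h. Both 144 h libraries were the highest. Of 10 tested genes 3 rose between the windows (30%, against 5.43% of all tested genes) and none fell (median 1.96, and 2.71 without 120 h replicate 1). From 132 h to 144 h 3 rose (30%, against 0.884%), and 3 fell from 144 h to 168 h (30%, against 3.28%). Between the windows 6 of the 10 were called higher without 120 h replicate 1, and 0 or 1 without any 1 of the other 7 libraries. Myl4, an atrial and embryonic myosin light chain, was at 2.51 and 0.513 FPKM at 120 h, 0.306 and 0.653 at 132 h, 17.6 and 33.1 at 144 h, and 3.53 and 4.44 at 168 h. It was called higher in the step to 144 h (log2 difference 5.45 ± 0.66, adjusted p = 0.0046) and lower in the step to 168 h (log2 difference -2.58 ± 0.66, adjusted p = 0.045), and higher between the windows (log2 difference 3.57 ± 0.86, adjusted p = 0.041). Myl7, the atrial regulatory light chain, was at 3.45 and 0.111 FPKM at 120 h, 0.645 and 0.130 at 132 h, 24.1 and 37.7 at 144 h, and 0.679 and 0.264 at 168 h, so both 144 h libraries stood above the other 6. It did not pass between the windows (log2 difference 2.75 ± 1.74, adjusted p = 0.30). Smyd1, a muscle methyltransferase, and Actn2, a sarcomere protein, rose as well (log2 differences 2.22 and 1.48). In the wild-type libraries outside the time course, 144 h minus 120 h was 0.35 for Myl4 and 0.79 for Myl7, against 4.26 and 5.13 in the time course. Against 120 h replicate 4 of that set alone it was -0.05 and -0.09. With all 120 h libraries of that set, Actn2, Myh6 and Tnnt2 differed by 0.05, 0.13 and -0.67. Smyd1, Mef2c, Hand2, Gata4 and Gata6 differed by 1.31 to 3.01. With no call in the first step, 8 genes of all those tested rose to 144 h and fell to 168 h, and 9 fell and then rose. None of the 18 tested endothelial genes passed between the windows, with 16 positive differences, 4 at an unadjusted p under 0.05 and 4 called by the fit with error within stages (median 1.20, and 1.90 without 120 h replicate 1). Without that library 13 of the 18 were called higher, and none without any 1 of the other 7. Their sum was 190.3 and 48.9 FPKM at 120 h, 41.6 and 63.2 at 132 h, 133 and 133 at 144 h, and 78.4 and 85.2 at 168 h, with 120 h replicate 1 above the other 7 libraries. On the blood list 1 of 16 genes, Lmo2, reached the level tested, and it did not pass between the windows (log2 difference -0.57 ± 0.57, adjusted p = 0.50). The part of 120 h replicate 1 in these results was not tested beyond the values without it.

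Hox genes gave few calls between the windows. For paralogue groups 1 to 4, 2 of 11 tested genes fell (18.2%, against 6.34% of all tested genes), none rose and 9 did not pass (median -0.34). For groups 5 to 8 none of 11 passed, 1 was lower at an unadjusted p under 0.05 and none passed by the fit with error within stages (median 0.04), while 4 of the 11 were called lower without 120 h replicate 1. For groups 9 to 13, 2 of 11 rose (18.2%, against 5.43%), none fell and all 11 were positive (median 1.83, and 0.83 without 120 h replicate 1). Hoxb4 was at 12.9 and 15.9 FPKM at 120 h, 9.13 and 10.7 at 132 h, 6.34 and 7.11 at 144 h, and 5.65 and 4.70 at 168 h. Its mean was lower at each later stage (log2 difference -1.01 ± 0.19, adjusted p = 0.026). Hoxd13, at the posterior end of its cluster, was at 0.147 and 0.142 FPKM at 120 h, 0.468 and 0.396 at 132 h, 3.25 and 1.92 at 144 h, and 5.59 and 4.10 at 168 h. It was low before 144 h and apart between windows (log2 difference 3.31 ± 0.41, adjusted p = 0.011). Hoxc11 was at 0 and 0.101 FPKM at 120 h, 0.761 and 0.904 at 132 h, 3.87 and 3.01 at 144 h, and 4.89 and 3.66 at 168 h, with called rises in the first 2 steps (log2 difference 3.43 ± 0.74, adjusted p = 0.033). In the first step 4 members of the posterior groups rose, Hoxc11, Hoxa11, Hoxd11 and Hoxd10, against 0.349% of all tested genes. Hoxd10 was at 0.310 and 1.93 FPKM at 120 h, 6.52 and 7.31 at 132 h, 10.3 and 10.1 at 144 h, and 15.4 and 13.3 at 168 h. Hoxc10 was at 1.81 and 25.2 FPKM at 120 h, 64.3 and 60.7 at 132 h, 69.9 and 69.7 at 144 h, and 71.2 and 60.7 at 168 h. Both had their largest step from 120 h to 132 h, where 120 h replicate 1 was far below replicate 2, and neither passed between the windows (adjusted p = 0.12 and 0.29). Hoxb9 was at 52.04 and 127 FPKM at 120 h, 139 and 133 at 132 h, 120.0 and 115 at 144 h, and 129 and 129 at 168 h and did not pass either. Noncoding transcripts at the HoxA cluster passed too. Hoxa11os, which overlaps Hoxa11 on the opposite strand, was at 0 and 0.214 FPKM at 120 h, 2.79 and 3.96 at 132 h, 12.9 and 14.2 at 144 h, and 28.1 and 19.9 at 168 h (log2 difference 4.53 ± 1.17, adjusted p = 0.048). The quantification ran with default parameters and no strand setting is named, so reads of the overlapping pair cannot be told apart. Halr1 was at 42.1 and 65.1 FPKM at 120 h, 37.1 and 45.9 at 132 h, 13.2 and 16.9 at 144 h, and 4.88 and 4.86 at 168 h. It was lowest at 168 h (log2 difference -2.43 ± 0.45, adjusted p = 0.024). Among genes linked to the trunk-to-tail switch, 1 of 11 fell (9.09%, against 6.34%) and none rose. It was Nr6a1, an orphan nuclear receptor of trunk development, at 38.3 and 36.4 FPKM at 120 h, 29.5 and 30.9 at 132 h, 22.2 and 21.4 at 144 h, and 15.5 and 16.8 at 168 h. Its mean was lower at each later stage (log2 difference -0.84 ± 0.15, adjusted p = 0.021). Hmga2, of the Lin28 and let-7 axis, was at 183 and 224 FPKM at 120 h, 229 and 238 at 132 h, 254 and 269 at 144 h, and 186 and 184 at 168 h and did not pass.

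Signaling lists were mixed. For BMP and TGF-beta 7 of 17 tested genes rose (41.2%, against 5.43%) and 1 fell (5.88%, against 6.34%), Tgfb3 (log2 difference -0.85), with a median of 0.68. Without either 168 h library none was called higher, and 1 was without 120 h replicate 2 or 132 h replicate 2. Among ligands Gdf10 was at 0.160 and 0.260 FPKM at 120 h, 0.591 and 0.470 at 132 h, 1.163 and 1.32 at 144 h, and 1.51 and 1.63 at 168 h (log2 difference 1.77 ± 0.30, adjusted p = 0.021). Its late libraries were all the highest, and Bmp2 also rose (log2 difference 1.07 ± 0.18, adjusted p = 0.021). Of the targets, Id2, an inhibitor of bHLH factors, was at 37.7 and 47.5 FPKM at 120 h, 73.5 and 64.01 at 132 h, 103 and 107 at 144 h, and 140.4 and 152 at 168 h. Its mean was higher at each later stage (log2 difference 1.20 ± 0.23, adjusted p = 0.027), and Id3 and Id1 rose with it (log2 differences 1.04 and 0.88). Tgfbi, a matrix protein induced by TGF-beta, and Nog were the others (log2 differences 1.20 and 1.02). Gdf10 and Nog were under 1 FPKM at 120-132 h and passed the filter through the late window alone. For FGF 1 of 17 rose (5.88%, against 5.43%) and 1 fell (5.88%, against 6.34%; median -0.56). From 144 h to 168 h 5 fell (29.4%, against 3.28%), the feedback genes Spry1 and Spry2, the target Etv5 and the ligands Fgf17 and Fgf18. Fgfr3, a receptor of ventricular zone progenitors and cartilage, was at 0.523 and 0.554 FPKM at 120 h, 2.78 and 1.14 at 132 h, 6.25 and 4.09 at 144 h, and 14.3 and 14.3 at 168 h, higher at each later stage in the mean (log2 difference 2.97 ± 0.61, adjusted p = 0.030). The ligand Fgf9 fell (log2 difference -1.03 ± 0.23, adjusted p = 0.036), and Dusp6, a feedback phosphatase, was at 47.7 and 65.2 FPKM at 120 h, 47.2 and 49.01 at 132 h, 45.9 and 45.7 at 144 h, and 28.6 and 25.5 at 168 h without passing.

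Retinoic acid, Wnt and ephrin genes had few calls. In the retinoic acid list 1 of 11 rose (9.09%, against 5.43% of all tested genes) and 2 fell (18.2%, against 6.34%; median 0.16). Rbp4, the plasma retinol carrier, was at 1.11 and 1.70 FPKM at 120 h, 1.48 and 1.48 at 132 h, 3.34 and 3.87 at 144 h, and 7.09 and 7.996 at 168 h. Its late libraries were all above the earlier ones (log2 difference 1.80 ± 0.30, adjusted p = 0.020). Dhrs3, which reduces retinal and is induced by retinoic acid, was at 8.98 and 18.6 FPKM at 120 h, 11.8 and 12.1 at 132 h, 5.08 and 4.92 at 144 h, and 7.07 and 6.54 at 168 h, lowest at 144 h (log2 difference -1.08 ± 0.23, adjusted p = 0.032). Stra6, the retinol importer, fell too (log2 difference -0.78 ± 0.13, adjusted p = 0.021). Crabp1, a binding protein of neural cells, was at 106 and 114 FPKM at 120 h, 151 and 93.6 at 132 h, 141 and 132 at 144 h, and 393 and 382 at 168 h and rose in the last step (log2 difference 1.505 ± 0.24, adjusted p = 0.0059). Of 15 Wnt response genes 1 rose, Ccnd1, a D-type cyclin (log2 difference 0.46 ± 0.08, adjusted p = 0.022), and 1 fell, Axin2, the standard feedback target (log2 difference -0.68 ± 0.17, adjusted p = 0.045). Each is 6.67% of the list, against 5.43% and 6.34% of all tested genes. Axin2 was at 19.1 and 33.1 FPKM at 120 h, 22.9 and 22.1 at 132 h, 16.4 and 15.4 at 144 h, and 14.6 and 12.8 at 168 h. Lef1, a nuclear mediator, was at 44.8 and 69.9 FPKM at 120 h, 42.7 and 47.5 at 132 h, 28.9 and 33.2 at 144 h, and 8.81 and 8.72 at 168 h, apart between windows and past the threshold in the last step (log2 difference -1.81 ± 0.21, adjusted p = 0.00091). Sfrp2, a secreted Wnt binder, was at 22.5 and 42.6 FPKM at 120 h, 72.6 and 53.3 at 132 h, 83.7 and 88.6 at 144 h, and 201 and 193 at 168 h and rose in the last step (log2 difference 1.19 ± 0.26, adjusted p = 0.025). Among 15 Eph and ephrin genes 1 fell, Efnb2 (6.67%, against 6.34%), and none rose. Efnb2 was at 35.3 and 36.4 FPKM at 120 h, 27.6 and 30.9 at 132 h, 20.6 and 20.8 at 144 h, and 17.3 and 18.2 at 168 h (log2 difference -0.75 ± 0.11, adjusted p = 0.018).

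Smaller tissue lists gave few or no calls. Among 8 tested intermediate mesoderm genes Ret and Gata3, of the nephric duct, rose (25%, against 5.43% of all tested genes) and Emx2 fell (12.5%, against 6.34%). Their log2 differences were 1.72, 1.29 and -1.57 in that order. Neural crest had 9 tested genes and 1 call, the fall of the shared Pax3 (11.1%, against 6.34%). Its defining members Sox10 and Foxd3 did not reach the level tested. None of 5 tested germ cell genes passed, 2 were higher at an unadjusted p under 0.05 and 1 passed by the fit with error within stages. In the pluripotency list 1 of 16 fell (6.25%, against 6.34% of all tested genes), Slc7a3, an amino acid transporter (log2 difference -0.93 ± 0.22, adjusted p = 0.038). From 144 h to 168 h 6 fell (37.5%, against 3.28%; median of that step -1.01). Pou5f1, the pluripotency factor Oct4, was 1 of the 6, at 16.99 and 13.2 FPKM at 120 h, 16.7 and 19.4 at 132 h, 23.8 and 20.8 at 144 h, and 9.58 and 8.36 at 168 h. It was lowest in both 168 h libraries (log2 difference -1.30 ± 0.24, adjusted p = 0.011). Dppa5a was at 53.4 and 30.5 FPKM at 120 h, 48.9 and 57.6 at 132 h, 73.1 and 65.4 at 144 h, and 38.99 and 29.97 at 168 h and did not pass.

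**Figure D5:**
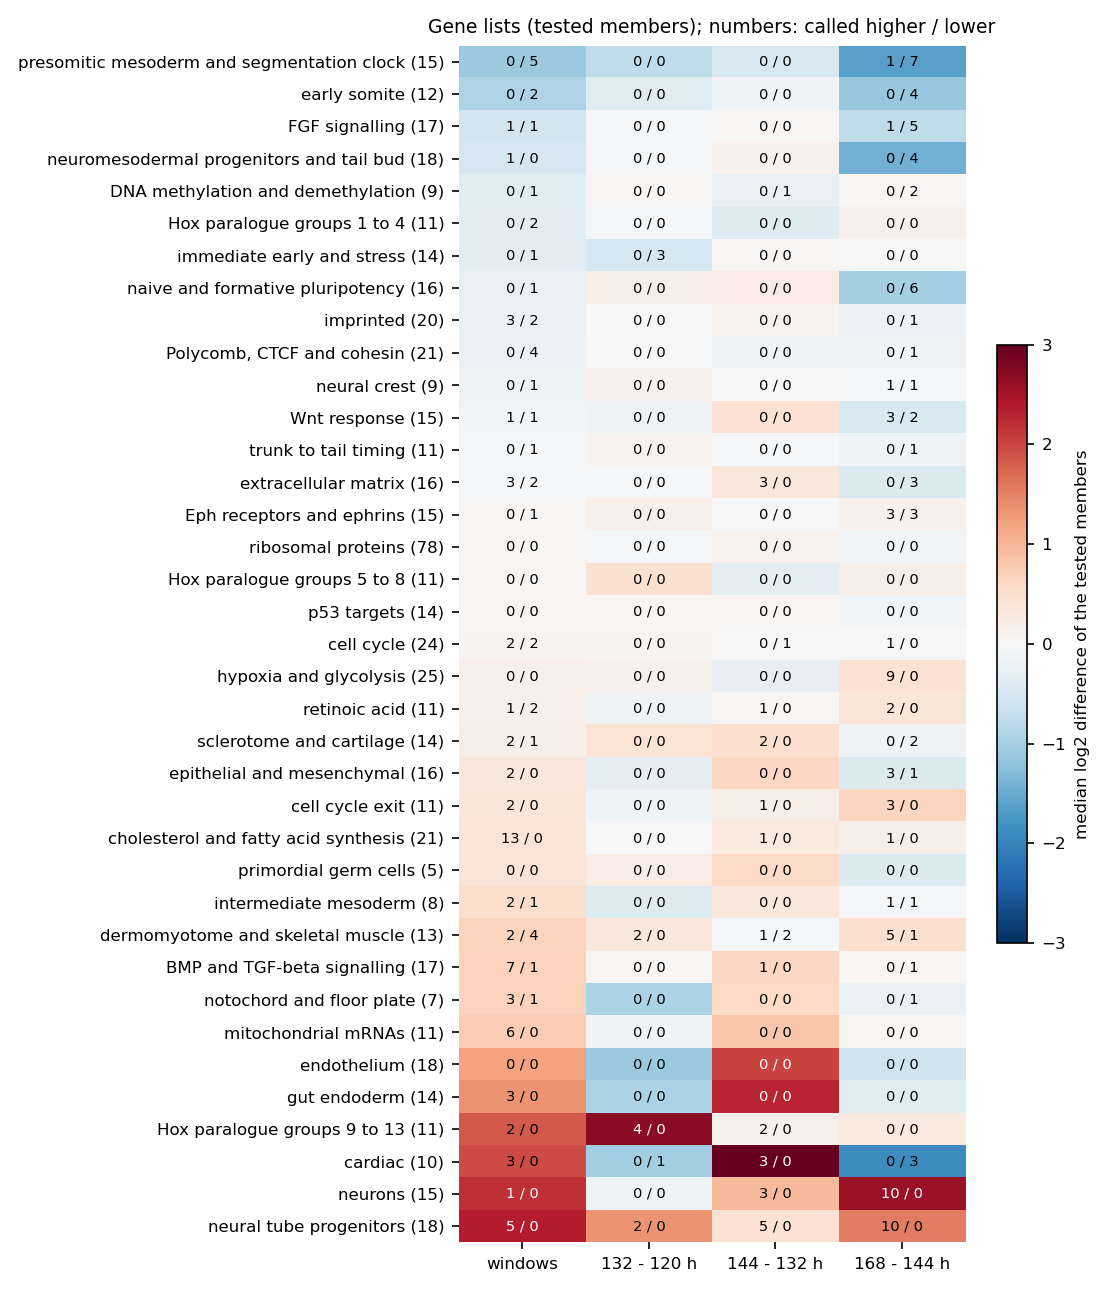
Rows are gene lists with at least 5 tested members, the number tested in parentheses, and columns are the windows and the 3 steps. Color gives the median log2 difference of the tested members and the numbers in each cell count members called higher and lower. Neural lists are red in the last step (10 and 10 called higher), the cardiac list is red in the step to 144 h and blue after it, and the clock list is blue in every column.

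Cell cycle genes gave 4 calls, and 2 inhibitors of the cycle rose. Of 24 cell cycle genes 2 rose (8.33%, against 5.43% of all tested genes) and 2 fell (8.33%, against 6.34%; median 0.09). Ccna2 and Ccne1 rose by 0.38 and 0.37 on the log2 scale, and Top2a and Mki67 fell (log2 differences -0.22 and -0.83). In the wild-type libraries outside the time course, 144 h minus 120 h was 0.11, 0.21, 0.19 and 0.28 for these genes in that order. Against 120 h replicate 4 of that set alone it was -0.06, -0.10, -0.08 and 0.08. Mki67, which encodes the proliferation marker Ki-67, was at 46.4 and 52.7 FPKM at 120 h, 43.2 and 50.8 at 132 h, 32.5 and 29.3 at 144 h, and 26.2 and 21.6 at 168 h. All late libraries were below the earlier ones (log2 difference -0.83 ± 0.13, adjusted p = 0.020). Pcna, of the replication clamp, was at 194 and 215 FPKM at 120 h, 227 and 211 at 132 h, 221 and 214 at 144 h, and 236 and 244 at 168 h and did not pass. Among 11 genes of cell cycle exit 2 rose (18.2%, against 5.43%) and none fell. Cdkn1c, an imprinted inhibitor of cyclin-dependent kinases, was at 13.2 and 12.5 FPKM at 120 h, 15.6 and 12.02 at 132 h, 25.9 and 29.5 at 144 h, and 45.9 and 40.2 at 168 h. It was highest at 168 h (log2 difference 1.37 ± 0.19, adjusted p = 0.017). Cdkn2b, an inhibitor of Cdk4 and Cdk6, was called in the last 2 steps, at 0.314 and 0.230 FPKM at 120 h, 0.133 and 0.222 at 132 h, 0.839 and 0.651 at 144 h, and 1.88 and 1.56 at 168 h (log2 difference 1.96 ± 0.34, adjusted p = 0.021). It passed the filter through the late window alone. In the wild-type libraries outside the time course, 144 h minus 120 h was 0.19 for Cdkn1c and 1.31 for Cdkn2b. Against 120 h replicate 4 of that set alone it was -0.12 and 0.46. Cdkn1a, a p53 target, was at 25.02 and 46.02 FPKM at 120 h, 34.99 and 36.6 at 132 h, 44.6 and 40.7 at 144 h, and 42.3 and 40.5 at 168 h and did not pass. None of 14 p53 targets passed, with 1 higher at an unadjusted p under 0.05 and 1 called by the fit with error within stages.

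Slight falls were called for 4 genes of the cohesin cycle. Of 21 Polycomb, CTCF and cohesin genes 4 fell (19%, against 6.34% of all tested genes) and none rose (median -0.17), all 4 of them cohesin subunits or regulators. Without 1 library the number that fell was 0 to 3, being 0 without 120 h replicate 2, 132 h replicate 2 or either 168 h library. Nipbl, the cohesin loader, was at 17.1 and 18.9 FPKM at 120 h, 16.4 and 17.9 at 132 h, 13.1 and 12.9 at 144 h, and 12.4 and 10.9 at 168 h. Both 168 h libraries were the lowest (log2 difference -0.51 ± 0.08, adjusted p = 0.020). Smc1a and Smc3, ring subunits, fell (log2 difference -0.38 ± 0.09, adjusted p = 0.035, and log2 difference -0.32 ± 0.07, adjusted p = 0.033), and so did Wapl, the release factor (log2 difference -0.29 ± 0.07, adjusted p = 0.046). Outside the time course the sign of these differences depended on the wild-type 120 h libraries taken. There, 144 h minus 120 h was 0.24 for Nipbl, 0.11 for Smc1a, 0.18 for Smc3 and 0.07 for Wapl on the log2 scale. Against 120 h replicate 4 of that set alone it was -0.10, -0.06, -0.13 and -0.23. Rad21, the third subunit of the ring, was at 108 and 109 FPKM at 120 h, 123 and 124 at 132 h, 119.9 and 124 at 144 h, and 123 and 126 at 168 h and did not pass (log2 difference 0.09 ± 0.07, adjusted p = 0.39). Ezh2, the Polycomb methyltransferase, was at 111 and 111 FPKM at 120 h, 103 and 108 at 132 h, 97.2 and 98.6 at 144 h, and 104 and 110.0 at 168 h and did not pass either. Among 9 genes of DNA methylation and demethylation 1 fell (11.1%, against 6.34%) and none rose. Dnmt3a, a de novo methyltransferase, was the member that fell, at 59.6 and 63.2 FPKM at 120 h, 60.6 and 67.2 at 132 h, 50.95 and 46.3 at 144 h, and 40.6 and 40.2 at 168 h (log2 difference -0.50 ± 0.09, adjusted p = 0.025). Uhrf1 and Dnmt1, of maintenance, were lower in all late libraries without passing (adjusted p = 0.055 and 0.073).

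Genes of sterol synthesis rose by small amounts. Of 21 genes of cholesterol and fatty acid synthesis 13 rose (61.9%, against 5.43% of all tested genes) and none fell, with a median of 0.39 against 0.03 for all genes. Without 1 library 2 to 11 rose, with 2 left without 132 h replicate 2 or either 168 h library. Mvk, mevalonate kinase, was at 30.1 and 29.6 FPKM at 120 h, 32.6 and 31.8 at 132 h, 47.2 and 45.1 at 144 h, and 49.4 and 51.8 at 168 h. The replicates of a stage were close and the windows apart (log2 difference 0.64 ± 0.07, adjusted p = 0.0084). Hmgcs1, the first committed enzyme of the pathway, was at 204 and 186 FPKM at 120 h, 195 and 199.6 at 132 h, 236 and 252 at 144 h, and 331 and 329.9 at 168 h and was highest at 168 h (log2 difference 0.53 ± 0.13, adjusted p = 0.039). Insig1, Fdft1 and Sqle were among the others (log2 differences 0.53, 0.43 and 0.32). Mitochondrial mRNAs rose in 6 of 11 tested cases (54.5%, against 5.43%, median 0.77), in 2 without 120 h replicate 1, and in 0 to 4 without any 1 of the other libraries. Of the 6, mt-Nd3 was under 1 FPKM at 120-132 h and passed the filter through the late window alone. mt-Nd1, a complex I subunit, was at 1961 and 2394 FPKM at 120 h, 1763 and 2327 at 132 h, 3071 and 4200.5 at 144 h, and 3280.3 and 4076 at 168 h (log2 difference 0.79 ± 0.14, adjusted p = 0.024). Replicate 2 was above replicate 1 at every stage. None of 25 entries for glycolysis and hypoxia genes passed between the windows, with 1 higher and 1 lower at an unadjusted p under 0.05 and 3 called higher by the fit with error within stages. From 144 h to 168 h 9 of them rose (36%, against 4.45% of all tested genes), Ldha, which makes lactate, by 0.55 and Pgk1, a glycolytic kinase, by 0.78 on the log2 scale. None of 78 ribosomal protein genes passed, with 3 higher at an unadjusted p under 0.05 and 2 by the fit with error within stages (median 0.04).

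Imprinted genes split, with 3 of 20 higher (15%, against 5.43% of all tested genes) and 2 lower (10%, against 6.34%). Besides Cdkn1c, the paternally expressed Peg10 and Dlk1 rose. Peg10, a retrotransposon-derived gene, was at 98.5 and 48.1 FPKM at 120 h, 93.1 and 115 at 132 h, 182 and 193 at 144 h, and 172 and 169 at 168 h. All late libraries lay above the earlier ones (log2 difference 1.08 ± 0.26, adjusted p = 0.039). Mirg and Rian, maternally expressed noncoding RNAs of the Dlk1 domain, fell. Mirg was at 48.5 and 49.4 FPKM at 120 h, 35.3 and 42.4 at 132 h, 22.6 and 23.2 at 144 h, and 18.8 and 14.7 at 168 h (log2 difference -1.15 ± 0.17, adjusted p = 0.019). Rian was at 408 and 325 FPKM at 120 h, 246 and 328 at 132 h, 191 and 209.7 at 144 h, and 179 and 208 at 168 h (log2 difference -0.71 ± 0.15, adjusted p = 0.031). Dlk1, the paternally expressed gene of the same domain, was at 24.7 and 12.3 FPKM at 120 h, 17.7 and 22.2 at 132 h, 36.8 and 39.7 at 144 h, and 32.7 and 30.3 at 168 h and rose (log2 difference 0.90 ± 0.22, adjusted p = 0.041). Vim, an intermediate filament of mesenchyme and neural progenitors, was at 115 and 103 FPKM at 120 h, 174 and 138 at 132 h, 235 and 241 at 144 h, and 538 and 549.7 at 168 h and was highest at 168 h (log2 difference 1.47 ± 0.34, adjusted p = 0.038).

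At 120 h the immediate early genes stood out. Of 14 tested genes of the list 3 fell from 120 h to 132 h, against 0.349% of all tested genes. Fos, which cells induce within minutes of a stimulus, was at 41.3 and 12.6 FPKM at 120 h, 0.280 and 0.445 at 132 h, 0.499 and 0.786 at 144 h, and 0.494 and 0.700 at 168 h. Both 120 h libraries were above the other 6, and the step to 132 h passed (log2 difference -5.65 ± 0.83, adjusted p = 0.018). Fosb and Egr1 fell in the same step (log2 differences -4.95 and -4.51), and Atf3, a stress-induced factor, fell between the windows (log2 difference -0.75 ± 0.18, adjusted p = 0.039).

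Called genes differed from all tested genes in a few annotated features, which were counted and not tested. The lower genes had a median genomic span of 41.9 kb and 23.4% of them spanned over 100 kb, against 21.5 kb and 12.6% of all tested genes, and the higher genes had 19.2 kb and 12.1%. Chromosome X held 35 higher genes (5.23%) and 31 lower ones (3.96%), against 3.52% of all tested genes. Protein-coding genes made up 95.2% of the higher, 95.8% of the lower and 91.3% of all genes. RefSeq promoter windows of GRCm38.p6, 250 bases before to 50 after a start, matched 520 higher, 620 lower and 9227 of all tested genes by symbol. Their median GC content was 62.1% and 61.3%, against 61.5%. The letters TATAAA, read on the gene's strand with the first base 40 to 20 bases before the start, were in 15 windows of higher genes (2.88%), in 1 of lower genes (0.161%) and in 103 of all tested genes (1.12%). Over all 27025 genes with a RefSeq window the share was 2.41%.

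The windows of Vim and Rbp4, which are 2 of the 15 higher genes that hold these letters, and of Mylip, the lower gene that does, are shown so that the element can be read in place. Mylip encodes a ubiquitin ligase of the LDL receptor pathway and was at 6.98 and 11.03 FPKM at 120 h, 6.49 and 8.12 at 132 h, 3.81 and 3.71 at 144 h, and 2.94 and 2.28 at 168 h (log2 difference -1.33 ± 0.22, adjusted p = 0.020). It was picked after its window was seen. Each line is the 60 bases before the start on the gene's strand, with TATAAA in capitals, at chr2:13574251-13574310, plus strand, chr19:38124812-38124871, minus strand, and chr13:45389682-45389741, plus strand.
Vim: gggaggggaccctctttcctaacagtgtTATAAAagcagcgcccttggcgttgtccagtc
Rbp4: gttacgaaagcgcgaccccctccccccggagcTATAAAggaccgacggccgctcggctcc
Mylip: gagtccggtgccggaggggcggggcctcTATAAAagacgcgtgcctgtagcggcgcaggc
The letters lie at a similar distance from the start in all 3 windows, but the search counted them only within the short range given above. A similar distance therefore follows from how the windows were chosen and is not a result for these genes. The E-box CAGATG, a site that bHLH factors such as Neurog2 can bind, was searched on both strands of the same windows and was in 14.04% of the higher, 13.7% of the lower and 12.8% of all tested genes. In the 250 bases before the start Nhlh1 held 1 copy and Olig2, Neurog1, Neurog2 and Nkx6-1 none. These bases of Nhlh1 follow with the copy in capitals, at chr1:172057597-172057846, minus strand.
Nhlh1: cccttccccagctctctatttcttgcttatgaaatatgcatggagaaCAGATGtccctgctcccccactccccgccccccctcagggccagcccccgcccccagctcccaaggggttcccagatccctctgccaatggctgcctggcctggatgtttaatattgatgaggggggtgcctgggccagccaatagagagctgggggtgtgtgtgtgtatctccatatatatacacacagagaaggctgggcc

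Some genes switched between exact 0 and a high value between stages. Cspp1, a centrosomal gene used widely in dividing cells, is listed at 6.54 and 7.68 FPKM at 120 h, 4.76 and 6.39 at 132 h, 0 and 0 at 144 h, and 0 and 0 at 168 h. Cdc25b, a cell cycle phosphatase, is listed at 0 and 0 FPKM at 120 h, 0 and 0 at 132 h, 8.87 and 8.93 at 144 h, and 22.9 and 21.5 at 168 h, and Zfp668, a zinc finger gene, at 0 and 0 FPKM at 120 h, 0 and 0 at 132 h, 11.7 and 12.7 at 144 h, and 12.9 and 16.7 at 168 h. Oip5, a centromere gene, is listed at 26.9 and 25.9 FPKM at 120 h, 0 and 0 at 132 h, 24.6 and 25.8 at 144 h, and 25.6 and 25.8 at 168 h. Hoxaas3, an antisense RNA of the HoxA cluster that overlaps several Hox genes, is listed at 67.7 and 133 FPKM at 120 h, 95.6 and 90.2 at 132 h, 84.97 and 84.2 at 144 h, and 0 and 0 at 168 h. Such a 0 can be a failed estimate of the quantification, and no fold is given for these genes. Altogether 290 tested genes were at 0 in at least 1 of the 8 libraries and at 5 FPKM or more in another, 99 of them protein-coding, and 8 of the 290 passed between the windows. Without the 290 genes 727 were higher and 824 lower, of 12041 tested.

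The 2 wild-type libraries at 144 h made outside the time course gave a further view, against the 4 wild-type libraries at 120 h from outside it. The labels give no batch for them, so stage and batch cannot be told apart. Of the 669 higher genes, 603 (90.1%) were also higher at 144 h there, against 66.4% of all tested genes, with a median log2 difference of 0.46 against 0.11. Of the 782 lower genes, 376 (48.1%) were lower there, against 32.8% of all tested genes, with a median of 0.01. These shares depended on the 120 h libraries taken. Against 120 h replicate 4 of that set alone, 449 (67.1%) of the higher genes were higher, against 47.2% of all tested genes (median 0.23). By the same measure 533 (68.2%) of the lower genes were lower, against 51.5% (median -0.11). Nkx6-1, Olig2 and Neurog2 were higher at 144 h there by 5.17, 5.47 and 5.74 on the log2 scale, and Ripply2 and Mesp2 were lower (-5.29 and -3.25). Hoxc11 differed by little there (-0.10), and Mirg and Rian had the opposite sign (0.91 and 0.70). So did 406 (51.9%) of the 782 lower genes when all 4 libraries at 120 h were taken, with Nipbl, Smc1a, Smc3, Wapl, Top2a and Mki67 among them. Against 120 h replicate 4 alone, Nipbl, Smc1a, Smc3, Wapl and Top2a were lower at 144 h (-0.06 to -0.23) and Mki67 was higher (0.08).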

How the data were processed

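RNA was sequenced from pooled wild-type stembryos as poly-A libraries (TruSeq Stranded mRNA). Per the labels and the study's methods, the authors trimmed reads with cutadapt 1.16, aligned them to mm10 with STAR 2.7.7a and an annotation based on Ensembl 102, kept uniquely mapping reads, and computed FPKM per library with Cufflinks 2.2.1. The deposited FPKM values are not pooled over replicates. The normalization removes depth, so depth was read off the steps between low values, of which 97.2% to 98.1% came out whole within 0.02, and precision at low levels is limited to a few fragments.

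Genes with a mean of 1 FPKM or more in either window were tested on the log2(FPKM + 0.1) scale with limma 3.58.1 in R 4.3.3, 4 libraries against 4 for the windows and 1 coefficient per stage for the steps, with Benjamini-Hochberg adjustment over all 12331 genes at 0.05. SD and n stand for libraries, and ± is the standard error of the fit. Alternatives changed the pseudocount, filter, scaling, variance model, block and libraries. Tables were handled with pandas 2.3.3 in Python 3.11.15 and plots drawn with matplotlib 3.10.9.

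The members and gene lists were chosen with earlier results of these data known. Genes were named by rule: the 12 largest rises and 12 largest falls among called genes whose windows did not overlap, with a mean of 5 FPKM or more in the higher window; up to 6 called and 2 uncalled members per list; and the 4 largest rises and falls per step. Members named for the last step alone (Tbx6, Msgn1, Hes7, Wnt3a, Fgf17, Fgf18, Cdx1, Spry1, Spry2, Etv5, Zic1, Nes, Dcx, Stmn2, Elavl3, Pou5f1, Ldha and Pgk1), for the first (Egr1, Fosb, Hoxa11 and Hoxd11), and Tgfb3, Id1, Fdft1, Sqle, Ckb, Rab43 and Mylip were chosen after their values were seen.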

Additional observations from a re-analysis of the deposited data

Results flagged for a closer look

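In 7 of the 310 windows of 4 libraries that were checked for the genes named here, 1 library lay so far from the other 3 that its gap, as a share of the whole range, passed Dixon's critical value. Chance flags about 1 in 20 groups in this way. In the 120-132 h window, 120 h replicate 1 was the library apart for Cdx4 (10.3 FPKM against 52.1 to 53.3, gap 0.986 of the range), Hoxb9 (52.0 against 127 to 139, 0.904) and Elavl3 (0.146 against 0.434 to 0.481, 0.903), all of them low there, and for Pgk1, which was high (161 against 136 to 138, 0.916). Dusp6 was high in 120 h replicate 2 (65.2 against 47.2 to 49.0, 0.883). In the 144-168 h window, Hoxc10 was low in 168 h replicate 2 (60.7 against 69.7 to 71.2, 0.865) and Uhrf1 in 144 h replicate 2 (110.4 against 118 to 119, 0.870).

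For 9 of the genes named, the 144 h libraries lay on opposite sides of the 120 h libraries in the time course and in the wild-type libraries outside it. The difference between the sets was not tested, and the labels give no batch for either set. Mirg was at 48.5 and 49.4 FPKM at 120 h and 22.6 and 23.2 at 144 h in the time course, and 52.97, 57.3, 16.8 and 23.2 at 120 h and 60.4 and 64.2 at 144 h in the other libraries, a difference of -2.01 on the log2 scale between the sets. Rian, of the same imprinted domain, was at 408 and 325 FPKM at 120 h and 191 and 209.7 at 144 h in the time course, and 462, 396, 148 and 265 at 120 h and 470.1 and 477 at 144 h in the other libraries (-1.56). Both genes were lower at 144 h in the time course and higher outside it.

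Fos was at 41.3 and 12.6 FPKM at 120 h and 0.499 and 0.786 at 144 h in the time course, and 0.302, 0.359, 0.623 and 0.419 at 120 h and 0.951 and 1.67 at 144 h in the other libraries (-6.39), and Fosb behaved alike (-5.91). The high 120 h values of these immediate early genes occur in the time course alone of the 2 sets. Pou5f1 was at 17.0 and 13.2 FPKM at 120 h and 23.8 and 20.8 at 144 h in the time course, and 4.92, 4.95, 58.6 and 13.4 at 120 h and 1.25 and 3.30 at 144 h in the other libraries (3.04), and Dppa5a at 53.4 and 30.5 FPKM at 120 h and 73.1 and 65.4 at 144 h in the time course, and 27.3, 26.9, 239 and 40.2 at 120 h and 3.37 and 6.11 at 144 h in the other libraries (4.25). Outside the time course the third 120 h library was the highest for both. Epha2 and Lin28a differed between the sets by 1.6 and 0.607 on the log2 scale. Cspp1 is listed at 0 at 144 h in the time course and had a mean of 8.63 FPKM at 144 h in the other libraries.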

How the results depend on the processing

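Every one of the 105 named differences between the windows kept its sign under every alternative run, and 1533 of their 2178 alternative values stayed on the same side of the threshold. Leaving out 1 library could not change the sign of a gene whose windows did not overlap. The 669 higher and 782 lower genes became 192 and 194 with no filter on low values, 191 and 248 with the replicate block, 363 and 278 with the 144 h libraries outside the time course added, 1770 and 1682 with 1 coefficient per stage, and 2275 and 2143 with 1 coefficient per condition over all 61 libraries. Without 1 library they ranged from 46 to 825 and from 43 to 844. Same-numbered replicates did not deviate together (correlations from -0.065 to 0.015 over 6 pairs of stages), so the replicate block pairs libraries by number only. Leaving out genes at 0 in some libraries and 5 FPKM or more in others, an alternative chosen after seeing the data, gave 727 and 824.

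From 120 h to 132 h (43 and 43) a pseudocount of 1 FPKM gave 86 higher, a mean of 5 FPKM or more gave 21 and 21, quantile normalization 67 higher, a variance trend 25 higher, and 61 libraries 252 and 208; without 1 library the ranges were 19 to 316 and 8 to 346. From 132 h to 144 h (109 and 89) a pseudocount of 1 or 0.01 FPKM gave 183 and 135, or 70 and 59, a mean of 5 FPKM or more gave 55 higher, quantile normalization 164 and 244, and 61 libraries 483 and 471, with ranges of 41 to 361 and 13 to 233 without 1 library. From 144 h to 168 h (549 and 405) a mean of 5 FPKM or more gave 331 higher, quantile normalization 656 lower, and 61 libraries 923 and 776, with ranges of 207 to 676 and 112 to 533 without 1 library. A stage with 1 library left was assumed to vary like the others. The cause of these shifts was not tested beyond the change in libraries or genes that each alternative makes.

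At 2 or 4 libraries a group, small differences and genes near 0.1 FPKM were not resolved, and a call that is lost does not show that a gene stayed level.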

Other observations

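Lists with no or few calls between the windows held members that changed in the last step. Among 15 Eph receptors and ephrins, Epha3, Ephb1 and Ephb2 rose from 144 h to 168 h by 2.64, 0.89 and 0.56 on the log2 scale, and Epha2 and Ephb3 fell (log2 differences -0.84 and -0.50). Of the genes of epithelial and mesenchymal state, Zeb1 and Zeb2, repressors of epithelial genes that neural progenitors also express, rose in that step by 0.34 and 0.60, and Snai1, of early mesoderm, fell (log2 difference -1.38). Dnmt3b, a de novo methyltransferase of early embryos, was at 32.3 and 29.9 FPKM at 120 h, 24.8 and 26.02 at 132 h, 23.4 and 23.1 at 144 h, and 14.7 and 14.5 at 168 h and fell in the last step as well (log2 difference -0.66). Lin28a, an RNA-binding protein that blocks let-7, was at 120.2 and 133 FPKM at 120 h, 127 and 129.9 at 132 h, 142 and 134 at 144 h, and 75.7 and 75.03 at 168 h (log2 difference of the last step -0.87). All of these genes were chosen after their values were seen.

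Trappc4, of a vesicle tethering complex, is listed at 0 and 0 FPKM at 120 h, 0 and 0 at 132 h, 0 and 0 at 144 h, and 80.4 and 59.4 at 168 h, and Wsb2 at 0 and 0 FPKM at 120 h, 0 and 0 at 132 h, 0 and 0 at 144 h, and 22.4 and 13.8 at 168 h. Both are listed at 0 in the 6 libraries up to 144 h, and no fold is given for them.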
